A study of Mus musculus with 14 samples.

Results

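The results below follow fat cell differentiation in 3T3-L1 cells depleted of TP53INP2. They rest on the 7 arrays whose genotype label is KD TP53INP2, out of 14 arrays in the series, and the members were chosen by that label alone. Of these, 3 arrays hold preadipocytes at day 0 and 4 hold adipocytes at day 7 of differentiation. 3T3-L1 is an established mouse fibroblast line that turns into fat-storing cells under adipogenic hormones. All cells of the series had been transduced with a lentivirus, which carried siRNA sequences against TP53INP2 in the knockdown cells and scrambled sequences in the control cells (3 arrays at day 0 and 4 at day 7). Cells were kept in Proliferation medium, were sampled at day 0 when they had been confluent for 2 days, and were then held in Differentiation medium up to day 7; the labels do not list what the media contain. The tissue label reads Adipose tissue, but every sample is this cultured line, and the use of a single line limits how far the values speak for fat cells in an animal. The labels number the replicates and do not say whether they were separate cultures, so p-values measure the spread between these arrays, which may be technical.

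TP53INP2 is a protein that shuttles between nucleus and cytoplasm, takes part in the formation of autophagosomes, the vesicles that carry cell contents to lysosomes, and acts as a coactivator of thyroid hormone receptors. When confluent 3T3-L1 cells meet adipogenic hormones they divide again for a short time, and then the nuclear receptor PPARgamma together with C/EBPalpha turns on the genes of lipid storage, lipid release, mitochondrial oxidation and hormone secretion. At the same time the fibroblast programme of collagens, other matrix proteins and preadipocyte receptors is turned down. The comparison asks which genes took part in this change in cells with less TP53INP2, and where the change differed from that of control cells.

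The knockdown was present at both days. The probe set for Trp53inp2 read 11.06, 11.14 and 11.66 on the log2 scale in knockdown cells at day 0, and 12.45, 12.53 and 12.38 in controls. At day 7 the knockdown arrays read 10.20, 10.06, 10.01 and 10.45 and the controls 11.74, 11.77, 11.78 and 11.70. No knockdown array reached a control array of the same day, and the message was lowered, not lost. Within knockdown cells Trp53inp2 itself fell by 1.10 ± 0.14 (log2, standard error, SE; adjusted p = 5.73e-05) from day 0 to day 7, and a dimmer probe set of the gene fell by 0.98 (adjusted p = 0.00276). The control cells fell by 0.71 on the same probe set, and the difference between these changes did not pass the test (adjusted p = 0.421).

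The arrays labelled adipocyte carried fat cell messages. Of 9 fat cell markers 7 were measured and 6 of these rose: Cidec, G0s2, Lcn2, Adipoq, Retn and Fabp4. All but Fabp4 are also among the largest rises described below, so both descriptions rest on the same values. Lcn2 is also a member of the acute phase list. The mean log2 level of the 7 markers lay between 4.83 and 6.26 in the day 0 arrays and between 10.1 and 10.9 in the day 7 arrays. Lep, which encodes leptin and marks mature fat in animals, read 2.54 at day 0 and 2.39 at day 7 and did not pass the test (adjusted p = 0.539). Fewer markers of other cells rose, and their mean levels were lower. Over all genes tested 19% rose and 16.8% fell. The lymphocyte, skeletal muscle and neural counts that follow lie near the share of all genes that rose. Of 10 macrophage markers 0 rose and 1 fell, and their mean level lay between 4.81 and 4.91 in the day 0 arrays and between 4.55 and 5.07 in those of day 7. Single macrophage markers read higher than this mean. Csf1r had means of 9.14 at day 0 and 8.66 at day 7, and Cd14 of 8.06 and 7.83. Neither passed the test (adjusted p = 0.516 and 0.721). The 8 endothelial markers lay between 3.46 and 3.62 at day 0 and between 3.21 and 3.45 at day 7. Of 6 measured lymphocyte markers 1 rose, and their mean moved from between 3.44 and 3.6 to between 3.63 and 3.90. Of 7 skeletal muscle markers 2 rose. Of 5 measured neural markers 1 rose, and their mean moved without overlap, from between 3.77 and 4.08 to between 4.78 and 4.96. The neural marker that rose was Snap25, with a mean of 3.84 at day 0 and 8.93 at day 7. No other neural marker passed the test in either direction. The part of these markers in the results below was not tested.

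Arrays give no read depth, and their number limits the precision. Replicates 1 and 2 lay closest together in each group: the log2 values of brighter probe sets differed between them with a standard deviation (SD) of 0.132 at day 7 and 0.188 at day 0. Replicate 3 stood apart, with an SD of 0.455 to 0.476 against the other day 7 arrays and 0.355 to 0.380 against the other day 0 arrays. Replicate 4, which exists at day 7, differed from replicates 1 and 2 with an SD of 0.240 and 0.241. On the first principal component, which held 56.4% of the variance over all 14 arrays, the day 0 knockdown arrays sat at -53.2, -52.0 and -48.1 and the day 7 arrays at 60.3, 60.1, 31.4 and 54.3, so that replicate 3 was the day 7 array nearest to day 0. The excess of 3' over 5' signal, a sign of RNA breakage or incomplete amplification, was 2.98 ± 0.25 (SD, n = 3) at day 0 and 3.04 ± 0.28 (SD, n = 4) at day 7 for beta-actin (two-sided exact permutation test, p = 0.771) and 1.77 ± 0.16 and 1.54 ± 0.15 for Gapdh (exact permutation p = 0.143, adjusted 0.214). For the transferrin receptor it rose from 2.73 ± 1.28 (SD, n = 3) to 5.53 ± 0.37 (SD, n = 4), with an exact permutation p of 0.0286, the smallest that 3 against 4 arrays allow, and an adjusted p of 0.0858; its part in the results below was not tested. In bulk RNA, fewer cells of a type and less RNA per cell cannot be told apart, and this holds for every value below.

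Differentiation changed a large share of the transcriptome of knockdown cells. Of 18193 genes, each read by 1 probe set, 6506 (35.8%) passed at an adjusted p under 0.05, with 3455 (19%) higher and 3051 (16.8%) lower at day 7. The arrays of both days did not overlap in 7149 genes (39.3%). At least 2-fold changes that passed the test numbered 1258 upward and 961 downward, at least 8-fold changes 157 and 43, and at least 16-fold changes 39 and 8, so the steepest changes were mostly rises. The median log2 difference over all genes was 0.0069. When replicates 1 and 2 of each group were averaged and counted as 1 sample, 4098 genes passed, 2273 higher and 1825 lower.

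The gene with the largest rise was Lcn2, a secreted lipocalin that binds iron carriers of bacteria. It read 4.96, 4.33 and 3.25 at day 0 and 12.39, 12.40, 13.26 and 12.55 at day 7, a rise of 8.47 ± 0.55 (SE) on the log2 scale (adjusted p = 7.74e-07). Its day 0 values lie near the lower quartile of the arrays (3.34 to 3.48), where RMA compresses differences, so the size of the rise is uncertain. All day 7 arrays were far above all day 0 arrays. Retnla, which encodes the secreted resistin-like alpha, went from 3.96, 3.69 and 3.93 to 11.78, 11.85, 11.50 and 11.58, a rise of 7.82 ± 0.53 (adjusted p = 8.65e-07), with little spread on either day. Its day 0 values also lie near the lower quartile, so the size of this rise is uncertain too. Cidec, whose protein fuses lipid droplets, read 3.86, 4.04 and 3.87 and then 11.10, 11.11, 8.89 and 11.04. It rose by 6.62 ± 0.74 (adjusted p = 2.3e-05), and replicate 3 lay more than 2 units below the other day 7 arrays while still above every day 0 array. The day 0 values of Cidec lie near the lower quartile as well, with the same limit on the size. G0s2, an inhibitor of the lipase ATGL, went from 6.0, 5.85 and 4.89 to 12.16, 12.12, 10.63 and 12.14, a rise of 6.18 ± 0.66 (adjusted p = 1.63e-05). Replicate 3 was again the lowest on each day.

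Adipoq, which encodes adiponectin, was the most uneven of these genes at day 0. Its arrays read 7.29, 7.47 and 2.30 at day 0 and 11.81, 11.76, 11.02 and 12.30 at day 7, a rise of 6.03 ± 1.05 (adjusted p = 0.000611). Replicates 1 and 2 thus held adiponectin message well above that of replicate 3 before differentiation began. Retn, which encodes resistin, followed the same order, with 6.76, 6.71 and 4.49 at day 0 and 12.41, 12.26, 10.82 and 12.38 at day 7 (a rise of 5.98 ± 0.65, adjusted p = 1.77e-05). The other genes among the 15 with the largest rises were Map7d2 (6.62), Lgals12, a galectin of lipid droplets (6.07), Wfdc21 (5.98), the transcript 4930511E03Rik (5.92), the retinol dehydrogenase Rdh12 (5.57), Fam107a (5.40), the adhesion receptor Adgrf5 (5.38), the carbonyl reductase Cbr2 (5.12) and Snap25, a protein of vesicle fusion best known from nerve terminals (5.09). The choice of the 15 required that every day 7 array exceed every day 0 array, so this is no result about them. Over all genes the arrays of both days did not overlap in 39.3%.

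**Figure D1:**
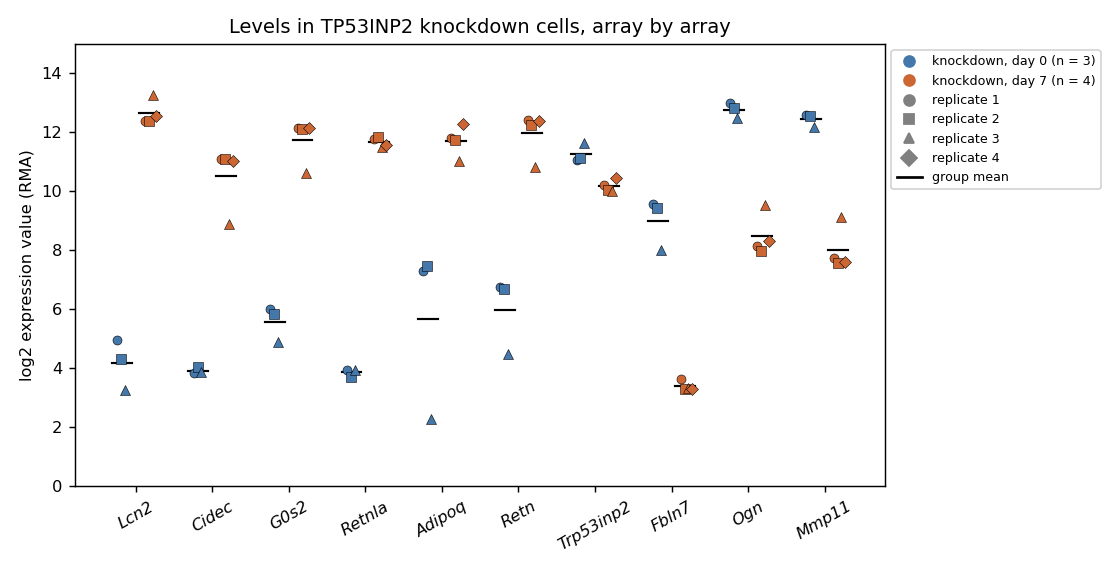
Log2 expression value (RMA, vertical axis) of 10 genes in the 7 knockdown arrays; blue points are day 0 (n = 3), orange points day 7 (n = 4), the shape gives the replicate number and bars are group means. For all 10 genes the days do not overlap, which the rule for the largest rises and falls required of all but Trp53inp2. At day 7 replicate 3 (triangles) lies nearest to the other day in Cidec, G0s2, Retnla, Adipoq, Retn, Ogn and Mmp11. It does not in Lcn2, Trp53inp2 and Fbln7.

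Genes were also grouped by role in 37 lists, and the shares that rose and fell in a list are read against the 19% and 16.8% of all genes and the median of 0.0069 given above. The transcription factors of adipogenesis moved in both directions. Of 24 measured, 10 rose and 7 fell, with a median of 0.23. Cebpa, which encodes C/EBPalpha, read 8.44, 8.57 and 8.35 at day 0 and 12.19, 12.09, 11.06 and 12.41 at day 7, a rise of 3.48 ± 0.46 (adjusted p = 7.81e-05). Pparg, its partner and the receptor that drives the fat cell programme, was already at 11.22, 11.39 and 10.95 at day 0 and reached 12.60, 12.56, 12.13 and 12.66, a smaller rise of 1.30 ± 0.20 (adjusted p = 0.000213). The coactivator Ppargc1b (2.55), the oxysterol receptor Nr1h3 (2.40) and Klf15 (1.99) rose as well. Cebpb, which acts early in adipogenesis, stayed between 10.25 and 10.63 over the 7 arrays and did not pass the test (0.12, adjusted p = 0.466). Ppargc1a, a coactivator of mitochondrial genes and of the brown fat programme, fell by 1.23 ± 0.24 (adjusted p = 0.00129), so it moved opposite to its relative Ppargc1b. Klf4, an early factor, fell by 1.36 ± 0.47 (adjusted p = 0.0366) with arrays that overlapped, since replicate 3 read 8.34 at day 7 beside 6.43, 6.66 and 6.17.

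Preadipocyte genes and inhibitors of adipogenesis were mostly lower at day 7: of 23 measured 11 fell and 1 rose, with a median of -0.47, and 3 rose without the day 7 replicate 4. Dlk1, which encodes the inhibitor Pref-1, read 13.25, 13.10 and 13.37 at day 0 and 11.59, 11.44, 12.60 and 11.43 at day 7, a fall of 1.48 ± 0.25 on the log2 scale (adjusted p = 0.000515). It remained bright in every day 7 array, and replicate 3 kept the most. Sox9, a factor of cartilage and of early progenitors, fell by 1.36 and Ddit3, a stress factor that blocks C/EBP proteins, by 1.29. The exception was Id1, an inhibitor of helix-loop-helix factors that is tied to dividing, undifferentiated cells. It rose from 6.99, 7.12 and 7.36 to 9.86, 9.77, 9.32 and 9.20 (2.38 ± 0.23, adjusted p = 6.39e-06). Its relatives Id2 (1.05, adjusted p = 0.142) and Id3 (1.02, adjusted p = 0.0732) were higher on average without passing the test.

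Genes of lipid release and triglyceride assembly rose steeply. In the lipolysis list 9 of 10 measured genes rose and 0 fell, with a median of 2.00. Lipe, which encodes hormone-sensitive lipase, read 4.96, 4.64 and 3.84 at day 0 and 9.42, 9.26, 7.80 and 9.71 at day 7, a rise of 4.57 ± 0.53 (adjusted p = 2.92e-05). Aqp7, the glycerol channel of fat cells, rose by 3.89 ± 0.53 and Pnpla2, which encodes ATGL, by 2.49 ± 0.31. The gene left over, Pnpla3, read 0.63 higher (adjusted p = 0.0546). The list therefore holds both a lipase that opens lipolysis and its inhibitor G0s2, and both rose.

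In triglyceride synthesis 9 of 15 measured genes rose and 2 fell, with a median of 0.94. Dgat2, which adds the last fatty acid, went from 7.18, 6.90 and 6.66 to 11.56, 11.51, 10.78 and 11.81, a rise of 4.50 ± 0.44 (adjusted p = 8.66e-06). Gpd1, which makes glycerol phosphate, went from 5.22, 5.66 and 5.21 to 10.55, 10.39, 7.05 and 11.09, a rise of 4.41 ± 1.04 (adjusted p = 0.00456). Its replicate 3 stood more than 3 units below the other day 7 arrays, so the rise was much smaller there. The acyltransferases Gpat3 (2.66) and Agpat2 (1.97) rose as well. Lipid droplet coat and fusion genes lay near the background of all genes, with 3 of 14 rising, 2 falling and a median of 0.15. Besides Cidec, Fitm2, which helps droplets bud from the endoplasmic reticulum, rose by 2.16, while Plin3 fell by 0.69. The probe sets of Hsd17b11, a droplet-bound dehydrogenase, disagreed: 2 of them fell, by 1.07 (adjusted p = 9.49e-06) and by 0.76 (adjusted p = 0.00398), and the dimmest read 1.03 higher (adjusted p = 0.051).

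**Figure D2:**
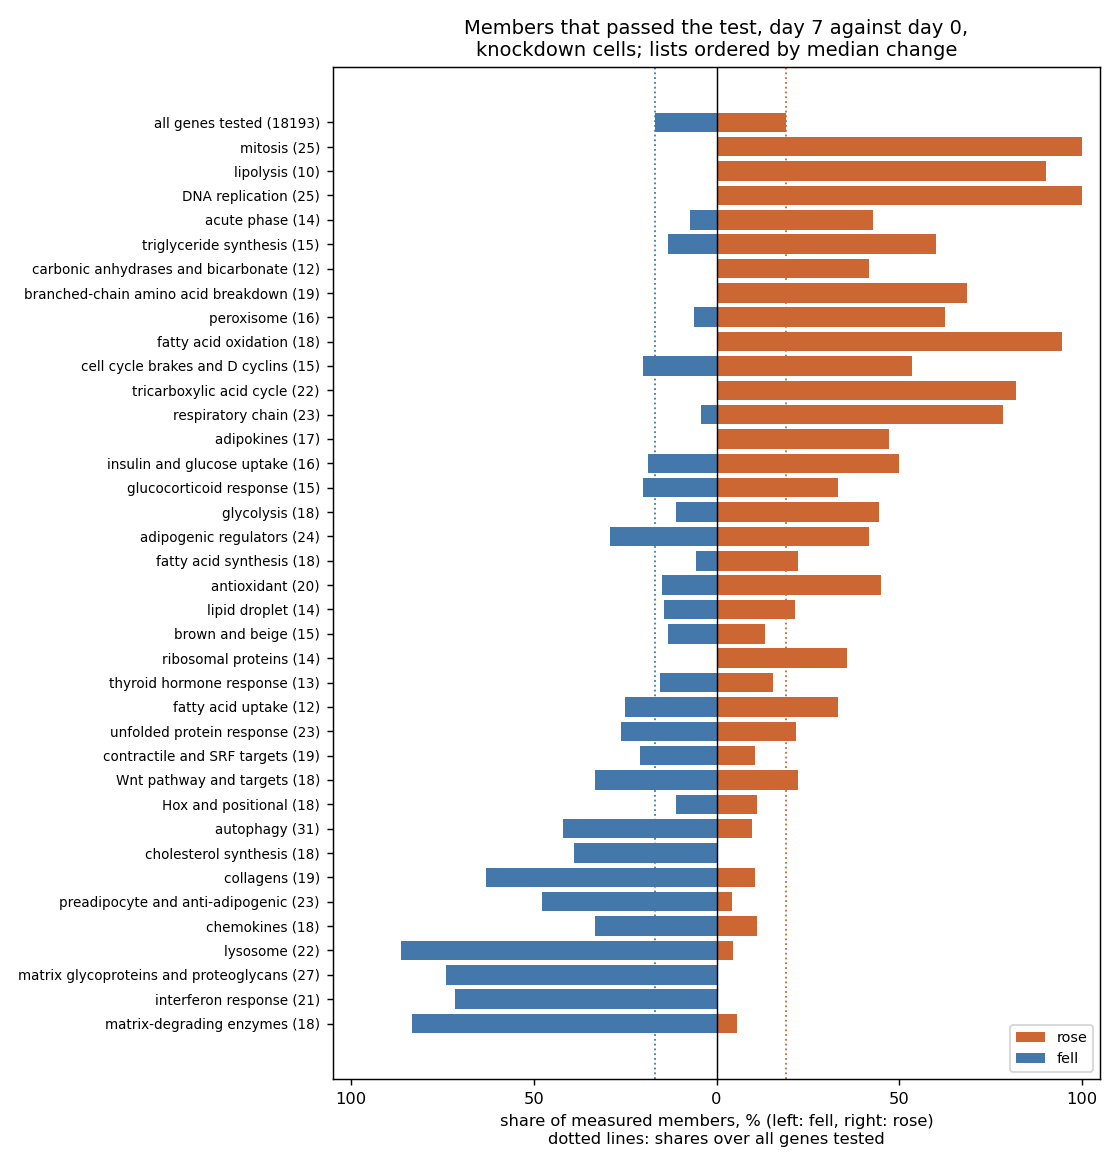
Share of measured members that fell (left, blue) or rose (right, orange) in knockdown cells from day 0 to day 7, in percent, for all 18193 genes (top bar, dotted lines) and for 37 gene lists ordered by their median change; the number measured is in brackets. Mitosis and DNA replication genes rose throughout, and genes of matrix-degrading enzymes, interferon response and lysosome mostly fell.

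In fatty acid synthesis the count turned on 1 array. Of 18 measured genes 4 rose and 1 fell, and the median was 0.19. Me1, which supplies NADPH, rose by 0.83 ± 0.12 (adjusted p = 0.000142), and the desaturase Scd3 by 1.04 ± 0.24 (adjusted p = 0.00429). Fasn, the fatty acid synthase, read 10.11, 10.22 and 10.45 at day 0 and 11.25, 11.21, 10.27 and 11.04 at day 7, a difference of 0.68 ± 0.27 that did not pass the test (adjusted p = 0.0688). Replicate 3 alone overlapped with day 0. Without the day 7 replicate 3, 9 of the 18 genes rose, and without any single one of replicates 1, 2 and 4 of day 7 or replicates 1 and 2 of day 0, 2 rose. Thrsp, a lipogenic gene that responds to thyroid hormone, read 1.55 higher with overlapping arrays (adjusted p = 0.122), and a second probe set of Thrsp rose by 0.86 (adjusted p = 0.0169). Acly, which makes acetyl-CoA from citrate, stayed between 12.48 and 12.81 over all 7 arrays.

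Fatty acid uptake genes split. Of 12 measured 4 rose and 3 fell, with a median of 0.026. Cd36, the fatty acid translocase, went from 8.75, 9.0 and 8.13 to 12.41, 12.44, 12.22 and 12.70 (3.82 ± 0.37, adjusted p = 7.15e-06), and all 4 day 7 arrays agreed closely. Fabp4, the fat cell fatty acid binding protein, was near the top of the scale before differentiation, at 12.65, 12.67 and 12.28, and rose to 13.71, 13.73, 13.66 and 13.80 (1.2 ± 0.14, adjusted p = 4.1e-05). Lpl, the lipase that frees fatty acids from lipoproteins, was likewise bright at both days, between 13.51 and 13.74, and did not pass the test (adjusted p = 0.363). The highest value in the whole table was 14.37. Gpihbp1, which anchors lipoprotein lipase on capillaries, fell by 3.73 ± 0.43 (adjusted p = 2.67e-05), and the transporter Slc27a1 fell by 1.42.

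In cholesterol synthesis 7 of 18 genes fell and 0 rose, with a median of -0.24, and the fall of the list's mean was largest in 1 array. Srebf2, the master regulator of this pathway, read 9.80, 9.80 and 9.86 at day 0 and 8.95, 8.90, 8.16 and 8.69 at day 7, a fall of 1.15 ± 0.19 (adjusted p = 0.000495). The pathway enzymes Mvd (fell by 1.2), Msmo1 (fell by 1.04) and Sqle (fell by 0.96) followed. The mean level of the list against day 0 was -0.91 in replicate 3 and -0.090, -0.095 and -0.24 in replicates 1, 2 and 4 of day 7, while the day 0 arrays lay between -0.16 and 0.30. Replicates 1 and 2 of day 7 thus lay within the day 0 range. Without the day 0 replicate 3, 4 members fell, and without all replicate 3 arrays 4 members rose.

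Hormones secreted by fat cells rose in a subset of genes. Of 17 measured adipokines 8 rose and 0 fell, with a median of 0.35. Beyond Retnla, Adipoq and Retn, Agt, which encodes angiotensinogen, rose by 1.92 ± 0.41 (adjusted p = 0.00228). Fgf21 (0.35, adjusted p = 0.0959) and Apoc1 (-0.51, adjusted p = 0.24) did not pass the test.

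Acute phase genes, which code for secreted proteins of the inflammatory response, had a median of 1.66, and 6 of 14 rose while 1 fell. Orm1 went from 6.11, 5.83 and 3.90 to 10.05, 10.11, 9.91 and 10.44 (4.85 ± 0.43, adjusted p = 4.48e-06) and was even across the day 7 arrays. Saa3, a serum amyloid, read 5.56, 5.08 and 5.68 at day 0 and 8.87, 9.15, 13.60 and 8.39 at day 7 (4.56 ± 1.30, adjusted p = 0.0143). Replicate 3 was more than 4 units above the other day 7 arrays. Haptoglobin, Hp, showed the same order with 8.94, 9.0, 11.43 and 9.20 at day 7 against 6.41, 6.77 and 5.02 at day 0 (3.58 ± 0.96, adjusted p = 0.0104). With replicates 1 and 2 averaged, 3 members of the list rose.

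Glucose uptake by the insulin route gained its transporter. Slc2a4, which encodes GLUT4, went from 3.88, 4.28 and 3.48 to 8.82, 8.89, 7.03 and 8.84, a rise of 4.52 ± 0.66 (adjusted p = 0.000161). Replicate 3 lay below the other day 7 arrays and above all day 0 arrays. Of 16 genes of insulin action and glucose uptake 8 rose and 3 fell, with a median of 0.29. The caveolar genes Cavin2 (2.52) and Cav1 (1.22) and Tbc1d4, which regulates the traffic of GLUT4 vesicles (1.94), were among those that rose. In glycolysis 8 of 18 rose, 2 fell and the median was 0.28, with the liver-type phosphofructokinase Pfkl at 1.5 ± 0.15 (adjusted p = 1.07e-05) and the neuronal enolase Eno2 falling by 1.28 ± 0.41 (adjusted p = 0.0272). Averaging replicates 1 and 2 left 5 glycolysis genes that rose.

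Genes of mitochondrial and peroxisomal oxidation rose broadly and by small steps. In fatty acid oxidation 17 of 18 measured genes rose and 0 fell (median 0.63). In the tricarboxylic acid cycle 18 of 22 rose and 0 fell (median 0.45). In the respiratory chain 18 of 23 rose and 1 fell (median 0.45). In the breakdown of branched-chain amino acids 13 of 19 rose and 0 fell (median 0.67), and among peroxisomal genes 10 of 16 rose and 1 fell (median 0.65). With replicates 1 and 2 averaged, 11 oxidation genes, 11 tricarboxylic acid cycle genes and 8 respiratory chain genes rose.

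Cpt2, which brings fatty acids into the mitochondrial matrix, read 9.59, 9.84 and 9.27 at day 0 and 10.97, 10.93, 10.56 and 11.40 at day 7, a rise of 1.40 ± 0.20 (adjusted p = 0.000133). Etfdh (1.36), Acads (1.33) and Acadm (1.04), which carry or catalyse the first oxidation step, rose as well. The exception of the list was Cpt1a, the gate enzyme of the outer membrane in many tissues, at -0.43 (adjusted p = 0.0678) on the brightest probe set; another bright probe set of Cpt1a fell by 0.86 (adjusted p = 0.00458). Pcx, which replenishes oxaloacetate for lipid synthesis, went from 8.21, 8.33 and 7.58 to 10.55, 10.70, 9.5 and 10.87 (2.37 ± 0.31, adjusted p = 7.32e-05). Uqcrfs1 of complex III rose by 1.46 and Idh3a of the cycle by 1.40. In branched-chain amino acid breakdown the dehydrogenase subunits Dbt (2.24) and Bckdhb (1.90) and the transaminase Bcat2 (1.84) led. Pex11a, which divides peroxisomes, rose by 2.04. The members of these lists that fell were Cox8b, a complex IV subunit of muscle and brown fat (-1.17 ± 0.29, adjusted p = 0.00614), and Acaa1a, a peroxisomal thiolase (-0.44, adjusted p = 0.0354).

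Brown fat genes did not rise as a group: 2 of 15 measured rose, 2 fell and the median was 0.14, close to the background of all genes. Ucp1, the uncoupling protein that defines brown fat, stayed between 3.91 and 4.47 over the 7 arrays and did not pass the test (0.027, adjusted p = 0.928). The potassium channel gene Kcnk3 rose by 2.91 ± 0.52 (adjusted p = 0.000683) and Ebf2 by 1.59 ± 0.41 (adjusted p = 0.00784), while Ppargc1a and Cox8b fell as given above. Other, dimmer probe sets of Kcnk3 read -0.050 and 0.31 and did not pass (adjusted p = 0.781 and 0.157).

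The cell cycle genes rose without exception in the lists measured. All 25 DNA replication genes rose (median 1.97) and all 25 mitosis genes rose (median 3.3), and in all 50 the arrays of both days did not overlap. Tk1, thymidine kinase, read 6.54, 6.79 and 8.15 at day 0 and 11.59, 11.55, 10.90 and 11.17 at day 7 (4.14 ± 0.35, adjusted p = 3.2e-06). Cdc6, which loads the replicative helicase, rose by 4.12 ± 0.34, the helicase subunit Mcm5 by 3.13 and Gins1 by 2.94. Mki67, the proliferation marker Ki-67, went from 6.92, 7.05 and 8.31 to 11.36, 11.33, 10.83 and 11.12 (3.73 ± 0.26, adjusted p = 1.18e-06). The day 0 replicate 3 was the highest of its group and the day 7 replicate 3 the lowest of its own. The spindle checkpoint kinases Bub1 (3.86) and Ttk (3.75), the mitotic kinase Aurka (3.80) and Cdc20, an activator of the anaphase-promoting complex (3.73), were the mitosis genes with the largest rises. The mean level of the mitosis list against day 0 was -0.48, -0.35 and 0.83 in the day 0 arrays and 3.34, 3.34, 3.15 and 2.93 in the day 7 arrays. Counts of 25 were kept under every alternative tried for both lists.

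The brakes of the cycle were mixed. Of 15 inhibitors, pocket proteins and cyclins of the D and G classes, 8 rose and 3 fell, with a median of 0.47. Rbl1, which encodes p107, rose by 1.78 ± 0.18 and the inhibitor Cdkn2d by 1.30, while Cdkn2b, which encodes p15, fell by 1.71 ± 0.32 (adjusted p = 0.000994). Ccnd1, cyclin D1, read 12.18, 12.24 and 12.05 at day 0 and 11.36, 11.34, 12.31 and 11.26 at day 7 and did not pass the test (-0.59, adjusted p = 0.0703), with replicate 3 level with day 0. The count of brakes that rose fell to 3 with replicates 1 and 2 averaged, to 4 without the day 0 replicate 1, and to 5 without the day 0 replicate 2 or without the day 7 replicate 4.

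The start regions of cell cycle genes are shown because the members of these lists moved together and because their promoters carry well-known short motifs. Windows of 300 bases (250 before and 50 after the annotated start, RefSeq, mouse build GRCm38.p6) were searched on both strands for the CCAAT box, written CCAAT, for the cell cycle homology region (CHR), written TTTGAA, and for the E2F letters TTTGGCGC, TTTCGCGC or TTTCCCGC; these motifs were picked with the movement of the lists known. Capitals mark CCAAT and CHR matches in the windows of cyclin B2 and polo-like kinase 1, and E2F matches in the window of the helicase subunit Mcm6. Ccnb2 lies on the minus strand (chr9:70421505-70421804), Plk1 on the plus strand (chr7:122159185-122159484) and Mcm6 on the minus strand (chr1:128359656-128359955), and each is written in the direction of its gene.
Ccnb2: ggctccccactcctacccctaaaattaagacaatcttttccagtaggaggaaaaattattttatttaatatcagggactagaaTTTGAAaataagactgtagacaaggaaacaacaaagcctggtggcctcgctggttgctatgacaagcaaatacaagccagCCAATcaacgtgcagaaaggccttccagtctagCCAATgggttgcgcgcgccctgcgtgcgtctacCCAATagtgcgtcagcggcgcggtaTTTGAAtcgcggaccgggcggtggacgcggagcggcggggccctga
Plk1: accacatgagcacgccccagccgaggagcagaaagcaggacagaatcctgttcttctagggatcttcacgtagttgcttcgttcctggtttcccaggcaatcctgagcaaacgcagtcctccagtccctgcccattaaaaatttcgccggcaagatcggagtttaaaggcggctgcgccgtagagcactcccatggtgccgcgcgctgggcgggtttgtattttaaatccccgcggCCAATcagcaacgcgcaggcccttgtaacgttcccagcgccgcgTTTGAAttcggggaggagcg
Mcm6: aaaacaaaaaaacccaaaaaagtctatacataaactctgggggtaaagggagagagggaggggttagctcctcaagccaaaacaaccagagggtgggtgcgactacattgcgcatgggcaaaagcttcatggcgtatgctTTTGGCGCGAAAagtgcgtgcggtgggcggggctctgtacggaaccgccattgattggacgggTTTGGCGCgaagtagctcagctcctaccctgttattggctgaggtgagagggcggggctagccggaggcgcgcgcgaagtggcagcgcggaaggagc
Ccnb2 read 6.65, 6.36 and 7.84 at day 0 and 10.47, 10.44, 10.47 and 10.28 at day 7 (3.47 ± 0.26, adjusted p = 1.59e-06). Plk1 read 5.44, 5.47 and 6.19 and then 9.44, 9.26, 8.57 and 8.63 (3.27 ± 0.27, adjusted p = 2.61e-06). Mcm6 went from 9.23, 8.97 and 10.02 to 11.53, 11.58, 11.51 and 11.30 (2.07 ± 0.21, adjusted p = 1.18e-05).

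A CCAAT box together with a CHR was found in 16 of 22 windows of mitosis genes (72.7%, 21 of 25 genes had a window) and in 947 of 18109 windows of all genes tested (5.23%). In the windows of mitosis genes these matches did not share bases. E2F letters were found in 10 of 25 windows of DNA replication genes (40%, 20 of 25 genes had a window) against 497 windows of all genes (2.74%), and in 1 of these 25 windows an E2F match shared bases with a CCAAT box. In the Mcm6 window the first run of capitals holds matches on both strands that share bases. Among all genes that rose, 5.07% of windows held E2F letters and 7.12% held the CCAAT and CHR pair; among genes that fell the shares were 2.15% and 2.87%. Such a match describes the letters of a window and not a bound site.

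The gene with the largest fall was Fbln7, a secreted fibulin. It read 9.57, 9.45 and 8.01 at day 0 and 3.64, 3.28, 3.35 and 3.29 at day 7, a fall of 5.62 ± 0.53 on the log2 scale (adjusted p = 6.56e-06). All day 7 arrays were near the bottom of the scale. Mfap4, a microfibril protein, fell by 5.17 ± 0.22 (adjusted p = 6.83e-08), with day 0 arrays at 8.44, 8.48 and 9.26 and day 7 arrays at 3.76, 3.84, 3.03 and 3.57. Ogn, which encodes the small proteoglycan osteoglycin, went from 13.01, 12.82 and 12.49 to 8.16, 7.97, 9.53 and 8.33, a fall of 4.27 ± 0.42 (adjusted p = 9e-06). Its highest day 7 value was again that of replicate 3.

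The other genes among the 15 with the largest falls were the transpeptidase Ggt5 (fell by 4.93), the apolipoprotein Apod (4.77 lower), the pigment cell antigen Mlana, the metalloproteinases Mmp11 and Mmp13, the orphan receptor Gpr176, Mamdc2, the zinc finger factor Bnc1, the chemokine Ccl8, the LIM protein Fhl2, the vesicle GTPase Rab27a and Gpihbp1. Their falls ran between those of Ggt5 and Gpihbp1. The choice of the 15 required that the arrays of both days not overlap, which held for 39.3% of all genes. Mmp11 read 12.59, 12.57 and 12.20 at day 0 and 7.73, 7.57, 9.13 and 7.62 at day 7 (-4.44 ± 0.39, adjusted p = 4.24e-06). Gpr176 read 11.48, 11.50 and 11.37 and then 6.57, 6.84, 9.13 and 5.63 (-4.41 ± 0.70, adjusted p = 0.000304). In both genes replicate 3 kept the most signal at day 7.

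Among matrix lists, 12 of 19 collagens fell and 2 rose (median -0.42), 20 of 27 matrix glycoproteins and proteoglycans fell and 0 rose (median -0.77), and 15 of 18 matrix-degrading enzymes and their inhibitors fell and 1 rose (median -2.05). With replicates 1 and 2 averaged, 11 matrix glycoproteins fell. The fibrillar collagen gene Col1a1 read 13.74, 13.76 and 13.70 at day 0 and 12.84, 12.77, 13.25 and 12.59 at day 7, a fall of 0.87 ± 0.13 (adjusted p = 0.000183). Col12a1, a collagen on the surface of fibrils, fell further, by 2.32 ± 0.44 (adjusted p = 0.00113), followed by Col16a1 (fell by 1.96) and Col11a1 (fell by 1.89). Col15a1, a basement membrane collagen, moved the other way, from 8.17, 8.01 and 7.05 to 10.30, 10.16, 9.51 and 10.14 (2.28 ± 0.56, adjusted p = 0.00621). Decorin, Dcn, went from 12.89, 12.95 and 12.57 to 9.32, 9.52, 10.91 and 9.34, a fall of 3.03 ± 0.34 (adjusted p = 2.46e-05). Thbs1 (fell by 3.04) and the laminin chain Lama2 (fell by 3.01) were close to it. Mmp14, a membrane-bound collagenase, fell by 2.56 ± 0.17 (adjusted p = 7.74e-07) and Plat, tissue plasminogen activator, by 2.64. Contractile genes lay near the background: 2 of 19 rose, 4 fell and the median was -0.070, with Actg2 rising by 2.19 and Cnn2 falling by 1.98; 4 rose without the day 7 replicate 4, and 2 fell with replicates 1 and 2 averaged.

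Interferon-induced genes, whose products sense and block viruses, fell together. Of 21 measured 15 fell and 0 rose, with a median of -1.61; with replicates 1 and 2 averaged 8 fell. The windows at the starts of Ifit3 and Ifit1 are shown with the interferon-stimulated response element (ISRE) in capitals, written GAAANNGAAA with N for any base and searched on both strands, so that the same element reads TTTCNNTTTC on the strand printed. Ifit3 (chr19:34583279-34583578) and Ifit1 (chr19:34640639-34640938) both lie on the plus strand of GRCm38.p6, and the sequences are RefSeq's.
Ifit3: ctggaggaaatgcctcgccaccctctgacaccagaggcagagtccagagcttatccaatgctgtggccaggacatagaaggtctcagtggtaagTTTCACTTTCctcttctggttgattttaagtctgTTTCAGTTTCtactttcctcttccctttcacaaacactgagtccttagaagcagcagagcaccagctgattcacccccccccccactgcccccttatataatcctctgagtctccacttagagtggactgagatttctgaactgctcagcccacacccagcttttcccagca
Ifit1: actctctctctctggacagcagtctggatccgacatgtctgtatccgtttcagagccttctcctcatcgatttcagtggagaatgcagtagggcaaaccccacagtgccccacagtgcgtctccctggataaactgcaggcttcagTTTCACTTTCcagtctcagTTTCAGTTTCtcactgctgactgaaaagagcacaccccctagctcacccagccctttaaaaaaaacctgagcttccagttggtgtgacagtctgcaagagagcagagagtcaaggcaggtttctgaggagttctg
An ISRE was found in 10 of 21 windows of interferon response genes (47.6%, 18 of 21 genes had a window) and in 548 windows of all genes tested (3.03%). No ISRE shared bases with an E2F match in the windows of interferon genes. Ifit3, an antiviral protein, read 10.50, 10.88 and 11.48 at day 0 and 6.86, 6.80, 9.29 and 7.10 at day 7, a fall of 3.44 ± 0.62 (adjusted p = 0.000752). Ifit1 went from 10.52, 10.83 and 11.49 to 8.04, 7.92, 10.52 and 8.22 (-2.27 ± 0.62, adjusted p = 0.0116), and its day 7 replicate 3 reached the level of day 0. Oasl2 fell by 3.31, Gbp3 by 2.71 and Mx1 by 2.66, and replicate 3 kept the highest day 7 value in each. Rsad2, which encodes viperin, read -2.22 and did not pass the test (adjusted p = 0.0576). The mean of the list against day 0 was -0.65 in replicate 3 of day 7 and between -2.36 and -1.82 in the others.

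Chemokines had no common direction. Of 18 measured 2 rose and 6 fell, with a median of -0.61. With replicates 1 and 2 averaged 0 fell and 1 rose, and without all replicate 3 arrays 10 fell. The count that rose was 1 without the day 0 replicate 1 or 3 or the day 7 replicate 1 or 2. Cxcl13, an attractant of B cells, went from 5.21, 5.13 and 5.46 to 9.31, 9.37, 9.94 and 8.75 (4.07 ± 0.37, adjusted p = 4.65e-06). Ccl8, an attractant of monocytes, went from 11.39, 11.46 and 11.72 to 6.97, 7.22, 10.18 and 6.32 (-3.85 ± 0.82, adjusted p = 0.00246). Cxcl5, an attractant of neutrophils, read 10.13, 9.98 and 9.76 at day 0 and 6.97, 7.20, 11.60 and 6.99 at day 7 and did not pass the test (-1.77, adjusted p = 0.243). In that gene 3 of 4 day 7 arrays were below day 0 and replicate 3 was above it. Ccl2 had the same order (-1.24, adjusted p = 0.274).

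Autophagy and lysosome genes are of interest because TP53INP2 acts in autophagy. Of 31 measured autophagy genes 13 fell and 3 rose, with a median of -0.21. The median in control cells was -0.22, and no member passed the test of the difference between genotypes. Gabarapl1, an ATG8-family protein of the autophagosome membrane, read 11.82, 11.85 and 11.77 at day 0 and 10.58, 10.55, 11.06 and 10.81 at day 7, a fall of 1.06 ± 0.15 (adjusted p = 0.000129). Atg2b, a lipid transfer protein of the growing membrane, fell by 1.09, Wipi1 by 0.97 and Atg10 by 0.84. Another probe set of Atg2b read 0.17 higher (adjusted p = 0.411) and a dimmer one of Wipi1 0.41 higher (adjusted p = 0.245), while 3 more of Wipi1 fell. With replicates 1 and 2 averaged 7 fell and 0 rose. The count that rose was 1 without the day 7 replicate 1 or 2, and 5 without the day 7 replicate 3.

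Lysosomal genes fell more evenly: 19 of 22 measured fell and 1 rose, with a median of -0.70. The median in control cells was -0.59, and no member of this list passed the test of the difference either. Ctsa, a lysosomal carboxypeptidase, went from 12.30, 12.45 and 12.10 to 10.31, 10.35, 10.73 and 10.14 (-1.90 ± 0.15, adjusted p = 1.92e-06). Hexa, the hexosaminidase subunit, fell by 1.58 ± 0.12 and the cathepsin Ctsl by 1.39. In Ctsa and Hexa no day 7 array came near a day 0 array. Tfeb, the transcription factor that drives lysosomal genes, was the member that rose (0.85, adjusted p = 0.0413), a call lost when any 1 knockdown array other than the day 7 replicate 3 was left out. In the unfolded protein response 5 of 23 rose (21.7%) and 6 fell (26.1%), with a median of -0.0094. Over all genes 19% rose and 16.8% fell. Xbp1 rose by 1.12 ± 0.25 (adjusted p = 0.00304) and Ddit3 fell as given above.

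Wnt signalling holds adipogenesis back in 3T3-L1 cells. Of 18 measured genes of the pathway and its targets 4 rose and 6 fell, with a median of -0.096; with replicates 1 and 2 averaged 3 fell. The receptor gene Fzd2 went from 11.97, 11.85 and 11.90 to 9.56, 9.70, 10.18 and 9.31 (-2.22 ± 0.16, adjusted p = 1.19e-06), and Fzd1 fell by 1.97 ± 0.15. Myc, a target and a transcription factor of growth and division, went from 7.97, 8.24 and 8.58 to 11.03, 11.01, 10.45 and 10.98 (2.60 ± 0.20, adjusted p = 1.83e-06). Bambi, a decoy receptor of TGF-beta signalling, rose by 2.28 ± 0.16 (adjusted p = 1.26e-06). Ctnnb1, which encodes beta-catenin, fell by 0.28 ± 0.08 (adjusted p = 0.0111).

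Thyroid hormone genes, listed because TP53INP2 is a coactivator of that receptor, showed no common direction: 2 of 13 rose, 2 fell and the median was 0.027. Thra, which encodes the receptor itself, fell by 0.36 ± 0.12 (adjusted p = 0.0303) and the coactivator Ncoa1 rose by 0.90 ± 0.19 (adjusted p = 0.00215). Other probe sets of Thra read -0.17 and -0.0038 and did not pass (adjusted p = 0.585 and 0.99). Among glucocorticoid-responsive genes 5 of 15 rose and 3 fell (median 0.28). Antioxidant genes rose in 9 of 20 and fell in 3 (median 0.15), with the microsomal transferase Mgst3 at 2.27. Among carbonic anhydrases and bicarbonate enzymes 5 of 12 rose and 0 fell (median 0.81), with Car3, an abundant fat cell isoform, rising by 3.99 ± 0.57 (adjusted p = 0.000134) and the mitochondrial Car5b by 2.78. Other probe sets of Car3 read 0.069, -0.079 and 0.57 and did not pass (adjusted p = 0.963, 0.922 and 0.051). The call of Car3 thus rests on 1 of its probe sets. Ribosomal protein genes, an abundant reference set, had a median of 0.12, with 5 of 14 rising and 0 falling, and 1 rising with replicates 1 and 2 averaged. Of 18 positional genes of the Hox and related classes 2 rose and 2 fell (median -0.13).

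Replicate 3 at day 7 had moved less far from day 0 in most genes. Among the 1258 genes that rose at least 2-fold it was the day 7 array nearest to day 0 in 712 (56.6%), and among the 961 that fell at least 2-fold in 712 (74.1%). Replicate 4 was nearest in 420 (33.4%) and 110 (11.4%). Some lists were in excess in replicate 3: the mean of the acute phase list stood 3.51 above day 0 there and between 1.63 and 1.76 in the other day 7 arrays, and the mean of the chemokine list stood at 0.91 against a range of -0.93 to -0.72. The control replicate 3 of day 7 shared this: against the control day 0 mean the acute phase list stood at 3.68 there and between 1.49 and 1.61 in the other day 7 controls, and the chemokine list at 1.13 against -0.35 to -0.28. Hp, for example, read 12.54 in that control array and 8.32, 8.53 and 8.34 in the others. In lipolysis genes the mean was 1.92 in replicate 3 and between 2.59 and 3.05 in the others. The macrophage markers given above did not rise in the group as a whole, and 0 of 10 passed upward; their part in the excess of replicate 3 was not tested.

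Single arrays decided the calls of some named genes. Eno2, Klf4 and Tfeb no longer passed when any 1 knockdown array other than the day 7 replicate 3 was left out. Msmo1 was lost without any day 0 array and without replicate 3 or 4 of day 7, and Sqle and Ifit1 without the day 0 replicate 3. The calls of Acaa1a, Thra, Apcdd1, Fn3k and Capza3 were each lost without at least 2 different arrays. Conversely, Fasn, Ccnd1, Cpt1a, Pnpla3, Thrsp, Rsad2, Cxcl5 and Ccl2 passed once the day 7 replicate 3 was left out, with Cxcl5 then at -2.90 and Ccl2 at -2.0. Pnpla3 also passed without the day 0 replicate 3, Cpt1a and Fgf21 (then at 0.56) without the day 0 replicate 2, and Id2 and Id3 without the day 7 replicate 4. Averaging replicates 1 and 2 further ended the calls of Ccl8, Ctnnb1, Ebf2, Gpd1, Hp, Lama2, Mx1, Saa3, Scd3, Thbs1, Wipi1, Cep83, Timp4 and Ccl9.

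**Figure D3:**
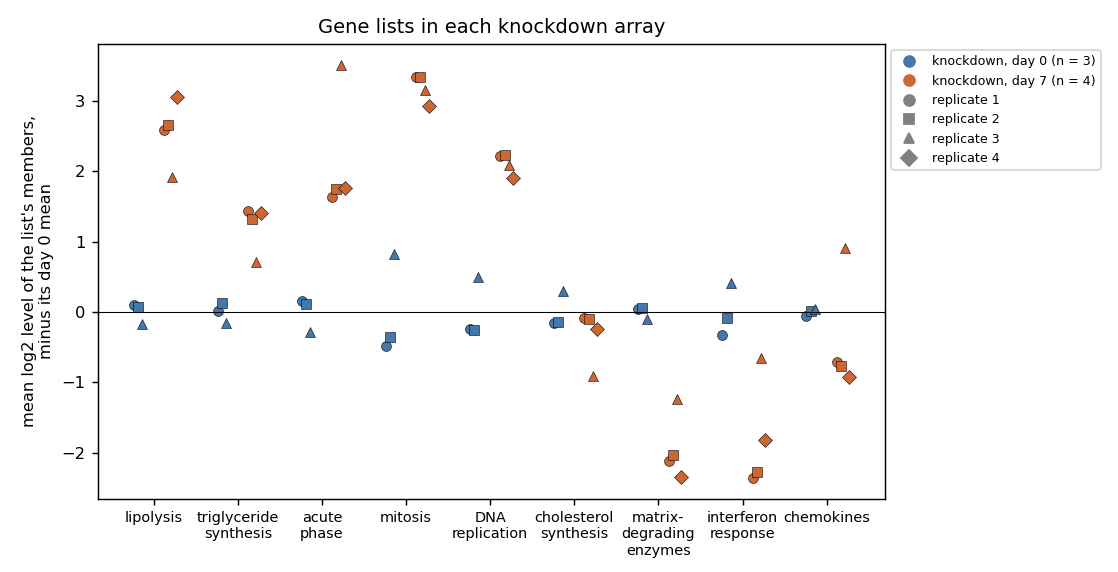
Mean log2 level of the members of 9 gene lists in each knockdown array, minus the list's day 0 mean; blue points are day 0 (n = 3), orange points day 7 (n = 4), and the shape gives the replicate. Mitosis and DNA replication are high in all 4 day 7 arrays, whereas replicate 3 (triangles) stands apart in acute phase genes, chemokines, interferon genes and cholesterol synthesis.

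Most changes in knockdown cells had the same sign in control cells. Of the 6506 genes called in knockdown cells 6205 (95.4%) had the same sign in control cells, and in 5763 (88.6%) the knockdown change was the larger, a share that the choice of knockdown calls favours. Over all 18193 genes, chosen by neither change, the absolute change was larger in knockdown cells in 11600 (63.8%), with medians of 0.269 in knockdown and 0.209 in control cells. Among the 4162 genes called in control cells, a choice that favours the control change, it was larger in knockdown cells in 2747 (66%). These tallies describe the arrays and carry no test. Control cells gave 4162 calls, and 3472 genes were called in the same direction in both, which is 53.4% of the knockdown calls and 83.4% of the control calls. Both comparisons rest on separate arrays, but same-numbered arrays of both genotypes deviated together within a day, so the changes are not independent. The correlation of the changes across the 18193 genes was 0.85, a description, since genes are not independent replicates. The part of the shared deviations in it was not tested. Among genes that rose at least 2-fold in knockdown cells, 1180 of 1258 had a larger change there, and among those that fell, 819 of 961; the genes were picked by their knockdown change, which by itself favours this direction. The median change of the lipolysis list was 2.00 in knockdown and 1.15 in control cells, that of triglyceride synthesis 0.94 and 0.13, that of mitosis 3.3 and 2.51, and that of matrix-degrading enzymes -2.05 and -1.33. In some other lists the median change was larger in control cells. It was -1.61 in knockdown and -1.86 in control cells for the interferon response, and -0.24 and -0.57 for cholesterol synthesis. For acute phase genes it was 1.66 and 1.84, and for insulin and glucose uptake 0.29 and 0.43. No member of the lipolysis, triglyceride synthesis, mitosis and matrix-degrading enzyme lists passed the test of the difference given next. With a replicate block within day 1 did, Timp4, an inhibitor of metalloproteinases, with a lower change in knockdown cells. The day 7 control arrays were uneven. On the first principal component replicates 1 to 4 sat at 38.37, 38.67, 12.03 and 11.71. Against day 0, their lipolysis means were 2.15, 2.14, 0.889 and 1.235. In knockdown arrays these were 2.59, 2.66, 1.92 and 3.05. For triglyceride synthesis the control means were 0.944, 1.01, 0.089 and 0.361, and the knockdown means 1.43, 1.33, 0.714 and 1.41. The part of control replicates 3 and 4 in the medians and tallies above was not tested.

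**Figure D4:**
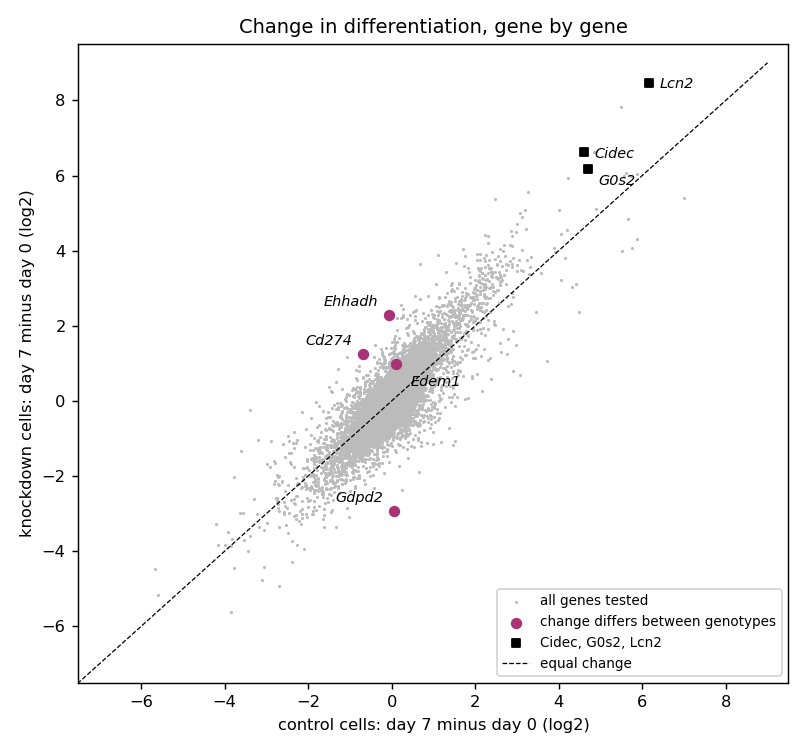
Log2 change from day 0 to day 7 in control cells (horizontal axis) against that in knockdown cells (vertical axis) for the 18193 genes tested; the dashed line marks equal change. Most genes share a sign, and Ehhadh, Cd274, Edem1 and Gdpd2 (purple) are the 4 whose changes differed between genotypes in the fit without a block, while Cidec, G0s2 and Lcn2 (black) rose in both.

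The test of the difference between these changes called 4 genes (0.022%), 3 with a higher change in knockdown cells and 1 with a lower one, and 2403 (13.2%) had an unadjusted p under 0.05. Arrays of both genotypes with the same number and day deviated together, and with that pairing as a block 196 genes (1.08%) passed, 135 higher and 61 lower, the 4 among them. As a random block it gave 419, 288 higher and 131 lower. Ehhadh, the bifunctional enzyme of peroxisomal fatty acid oxidation, read 2.79, 2.78 and 3.04 at day 0 and 5.27, 5.27, 4.98 and 5.10 at day 7 in knockdown cells. In control cells it stayed at 2.90, 3.33 and 2.73 and at 2.76, 3.10, 3.12 and 2.74. The change in knockdown cells was 2.29 ± 0.15, that in controls -0.06, and the difference 2.34 (adjusted p = 0.00168). All 4 knockdown arrays of day 7 stood above the other 10 arrays. Those 10 arrays read below the lower quartile of the arrays (3.34 to 3.49), where RMA compresses differences, so the size of the difference is uncertain.

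Gdpd2, a membrane phosphodiesterase, fell in knockdown cells from 10.29, 10.39 and 9.30 to 6.78, 6.99, 7.28 and 7.17, by 2.93 ± 0.30. Control cells read 7.87, 7.97 and 8.20 at day 0 and 7.67, 7.74, 8.06 and 8.85 at day 7, a change of 0.06, and the difference was -3.0 (adjusted p = 0.047). Knockdown cells were thus above the controls before differentiation and below them after it. Cd274, which encodes the immune checkpoint ligand PD-L1, rose from 6.85, 6.75 and 7.09 to 8.44, 8.34, 7.80 and 8.03 in knockdown cells and went from 7.16, 7.25 and 7.13 to 6.48, 6.52, 6.91 and 6.06 in controls. The changes were 1.26 ± 0.19 and -0.69, and the difference 1.95 (adjusted p = 0.047). Edem1, which takes misfolded glycoproteins out of the endoplasmic reticulum, rose from 8.67, 8.68 and 8.74 to 9.83, 9.63, 9.64 and 9.57 in knockdown cells (0.97 ± 0.09) and changed by 0.11 in controls, where it already read 9.62, 9.52 and 9.62 at day 0; the difference was 0.86 (adjusted p = 0.047). Another probe set of Edem1 gave -0.08 in knockdown cells (adjusted p = 0.643), so the rise rests on 1 of its probe sets.

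**Figure D5:**
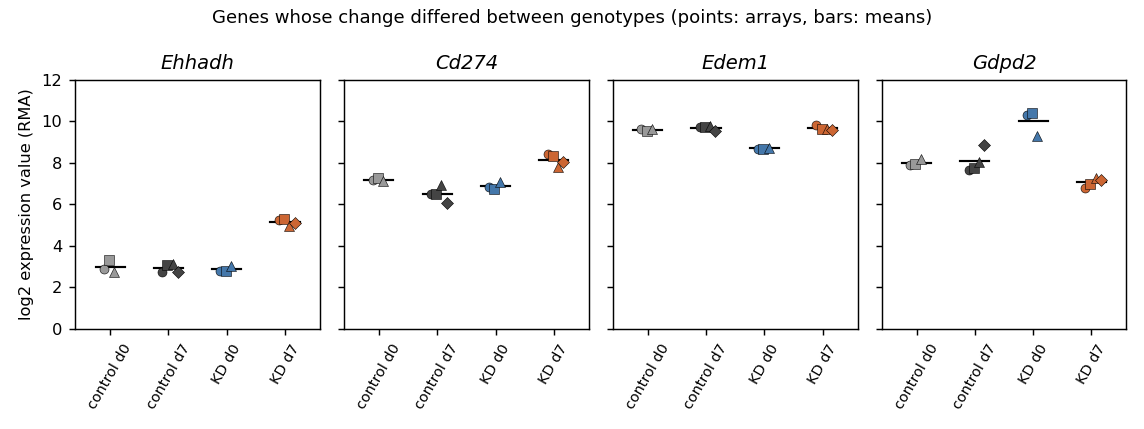
Log2 expression value (RMA) of Ehhadh, Cd274, Edem1 and Gdpd2 in control and knockdown (KD) arrays at day 0 (d0, n = 3) and day 7 (d7, n = 4); points are arrays and bars are group means. Ehhadh is raised in the day 7 knockdown arrays alone, and Gdpd2 and Edem1 differ between genotypes at day 0.

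The blocked test called 1.08% of all genes. In the lists it called Ehhadh and Pex5 of 16 peroxisomal genes, and Rfc4 and Prim1 of 25 DNA replication genes, all with a higher change in knockdown cells. Ccl6 and Ccl9 of 18 chemokines had a lower one. Of 19 collagens 1 was higher and 1 lower. A higher change was called in 1 of 19 contractile genes, 1 of 18 Wnt genes and 1 of 23 genes of the unfolded protein response. A lower one was called in 1 of 24 adipogenic regulators, 1 of 14 acute phase genes and 1 of 18 matrix-degrading enzymes and inhibitors. Such small counts were not tested as a property of a list. Of the genes described above, Bambi (difference 1.40, adjusted p = 0.031) and Actg2 (1.83, adjusted p = 0.0282) had a higher change in knockdown cells with this block, and Col12a1 (-1.90, adjusted p = 0.029) and Ggt5 (-2.24, adjusted p = 0.034) a lower one. None of these 4 passed without it. With the block as random, Bambi passed (adjusted p = 0.0117). Actg2 (adjusted p = 0.0764), Col12a1 (0.0542) and Ggt5 (0.0875) did not. Both forms of the block were added after seeing the data.

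The count of 4 without the block was sensitive to single arrays. It was 1 when any of replicates 1, 2 or 4 of knockdown day 7, replicates 1 or 2 of knockdown day 0, replicates 1 or 2 of control day 7 or replicate 1 of control day 0 was left out, and 2 without control day 0 replicate 3. It was 8 without control day 7 replicate 4, 17 without control day 7 replicate 3, 218 without knockdown day 0 replicate 3 and 317 without knockdown day 7 replicate 3. Ehhadh, Cd274, Edem1 and Gdpd2 were among the calls in each of these 4 latter cases. After averaging replicates 1 and 2, 0 genes passed.

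Calls in opposite directions in knockdown and control cells were made for 6 genes, a choice that uses both changes. Besides Cd274 they were F13a1, which encodes the A chain of coagulation factor XIII (1.17 in knockdown and -1.06 in control cells, difference adjusted p = 0.0529), Apcdd1, an inhibitor of Wnt signalling (0.56 and -0.83, adjusted p = 0.0725), Fn3k (0.29 and -0.50), Cep83 (0.36 and -0.36) and Capza3 (0.28 and -0.25). F13a1 read 4.67, 3.99 and 4.84 at day 0 and 5.78, 5.53, 6.02 and 5.37 at day 7 in knockdown cells, and 7.41, 6.84 and 7.32 and then 5.86, 5.96, 6.53 and 6.16 in controls. The genotypes did not overlap at day 0 and overlapped at day 7. With the block within day the difference passed for F13a1 (2.24, adjusted p = 0.0116), Fn3k (adjusted p = 0.034) and Cep83 (adjusted p = 0.0437), and Apcdd1 had an adjusted p of 0.0537.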

How the data were processed

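The authors deposited a table of log2 expression values for 45101 probe sets on 14 arrays. Per the submitters' processing notes they were made with RMA (background correction, quantile normalization and summary of probes) and the affy package. Neither version is given in the sources used here. Values ran from 1.13 to 14.37, from which the log base was read. RMA compresses changes of dim genes, and no detection calls were used. Per the labels' protocols, RNA came from Trizol and RNeasy columns, and the Ovation system amplified it before biotin labelling.

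The groups follow the labels of knockdown and day. Of the probe sets 64 were controls, 34945 had 1 gene symbol, 932 had several and 9160 are unnamed here. Where a gene had several probe sets (9010 genes) the brightest on average across all 14 arrays was used. Of 18193 genes 18031 were found in a RefSeq table of GRCm38.p6, used for names, and 0 symbols differed. One model with a mean per group was fitted to all 14 arrays by limma 3.58.1 (R 4.3.3), using lmFit and then eBayes, which gave 12.6 degrees of freedom, and every adjusted p of a gene is limma's with Benjamini-Hochberg adjustment over all genes at 0.05. Median SE was 0.150 for the change in knockdown cells and 0.212 for the difference from controls. The scripts were tested on simulated data. Same-numbered arrays of both genotypes at 1 day deviated together from their group means (correlations 0.299, 0.266 and 0.328 at day 0; 0.551, 0.626, 0.764 and 0.202 at day 7), so replicate numbers were taken to pair them within a day, from the data and not from a label. A block for each day and number was therefore added after seeing the data; the change from day 0 to day 7 lies between such blocks, so there the block was random (duplicateCorrelation, consensus correlation 0.306).

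The members and the 37 lists (745 entries, 685 measured) were chosen with earlier results of these data known, so lists are described by counts and carry no set test. The naming rule covered the 15 largest rises and falls without overlap, in each list up to 4 called members and up to 2 that did not pass, the genes called in the difference, opposite calls, Trp53inp2, Cidec, G0s2 and Lcn2. Which of these are named was settled after their values were seen, as were the added names Acaa1a, Acly, Ccnb2, Cebpb, Col1a1, Ctnnb1, Ifit1, Klf4, Lep, Lpl, Mcm6, Mki67, Plk1, Pparg, Tfeb, Ucp1, Timp4, Pex5, Rfc4, Prim1, Ccl6 and Ccl9. A list's mean in an array is the mean of its members' log2 levels minus its day 0 mean. Alternatives tried were other probe set choices, normalizations, filters, thresholds, variance models and array weights, a replicate block, the 7 knockdown arrays alone, replicates 1 and 2 averaged, and arrays left out; their effect is given in the closing section.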

Additional observations from a re-analysis of the deposited data

Results flagged for a closer look

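In groups of 4 arrays, an array was singled out where its gap to the nearest array exceeded Dixon's 95% critical share of the group's range, which chance alone gives in about 1 in 20 groups. Over all genes 1556 (8.55%) of the day 7 knockdown groups passed this, 993 (63.8%) of them through replicate 3. Among the 176 genes named in the text it held for 35, and 33 of these were replicate 3. Replicate 3 stood apart in Cidec (gap over range 0.969), G0s2 (0.975), Gpat3 (0.978), Slc2a4 (0.96), Retn (0.904), Lgals12 (0.855), Thrsp (0.907), Agpat2 (0.872), Fitm2 (0.839), Tbc1d4 (0.869), Idh3a (0.924), Pex11a (0.835), Lama2 (0.944), Tfeb (0.867) and Myc (0.912), all lower there than in the other arrays. It was higher in Saa3 (0.855), Hp (0.897), Cxcl5 (0.951), Ccl6 (0.894), Ccl9 (0.927), Ifit3 (0.878), Ifit1 (0.885), Dcn (0.875), Mmp11 (0.901), Thbs1 (0.841), Dlk1 (0.861), Ddit3 (0.931), Fhl2 (0.846), Cdkn2b (0.911), Ccnd1 (0.903), Cnn2 (0.9), Ctsl (0.846) and Atg2b (0.842). Replicate 4 was singled out in Ccnb2 (0.841) and Wfdc21 (0.884), where it was the lowest.

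By list means replicate 3 stood apart in adipogenic regulators (0.831), triglyceride synthesis (0.853), fatty acid synthesis (0.9) and adipokines (0.918), where it was lower, and in acute phase genes (0.929), matrix glycoproteins and proteoglycans (0.877) and chemokines (0.885), where it was higher. Changes that differed between knockdown and control cells by the test of the difference were those of Ehhadh (2.342), Cd274 (1.945), Edem1 (0.8587) and Gdpd2 (-2.999), on the log2 scale.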

How the results depend on the processing

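The count of 6506 changed genes was 4098 with replicates 1 and 2 averaged, 14099 (6861 higher, 7238 lower) over every probe set and 2219 at 2-fold or more. Leaving out each knockdown array gave 5462 to 6894 genes. It lay between 4666 and 8655 under the other alternatives, among them 7051 with a replicate block, and 6255 of these were calls of the fit without it. Across days the arrays share only a replicate number: deviations of same-numbered arrays correlated at -0.068, 0.11 and 0.075 in knockdown and 0.202, 0.0959 and 0.169 in control cells. With the random replicate block within day, chosen after seeing the data, it was 6516, and Fasn, Id3 and Rsad2 passed. The count of 4 genes whose change differed between genotypes was 26 with a replicate block, 196 with a replicate block within day, 419 with that block as random (both chosen after seeing the data), 0 with replicates 1 and 2 averaged, 57 with the dimmest 40% of genes left out, 1 after quantile normalization, 12 when each gene's most variable probe set was used, 83 over every probe set, 8 with limma-trend, 1663 with array quality weights, 507 without the replicate 3 arrays of all groups and 1 at an adjusted p under 0.01. Leaving out each array gave 1 to 317. The weights counted replicate 3 of both day 7 groups least, at 0.318 in knockdown and 0.315 in control cells.

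Of 157 named genes called, 26 lost the call under at least 1 alternative and 3 turned sign, all when each gene's most variable probe set (largest interquartile range) was used: Apcdd1 to -1.14 (adjusted p = 0.133), Edem1 to -0.084 (0.645) and Hsd17b11 to 1.03 (0.044). The cause was not tested. Of 129 other probe sets of 83 called named genes 11 had the opposite sign, and 0 of these passed. List counts of 3 or fewer members moved by over 1.5 times under several alternatives. Signal near the bottom of the scale limits what can be said of dim genes.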

Other observations

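Genes of the glucocorticoid response, whose agonists belong to common adipogenic mixes, were described above by their counts alone. Fam107a rose by 5.40 in knockdown and by 7.00 in control cells, and Angptl4, a secreted inhibitor of lipoprotein lipase, rose by 1.2 and by 2.13. The changes of neither gene differed between genotypes by the test (adjusted p = 0.432 and 0.334). In this list 3 of 15 members had the larger signed change in knockdown cells, against 10121 of all 18193 genes, and no difference passed the test. Among positional genes Hoxa4 rose by 1.55 ± 0.26 (SE, adjusted p = 0.00048), while Hoxc8 read -1.15 without passing (adjusted p = 0.452). In the antioxidant list Prdx3, a mitochondrial peroxiredoxin, rose by 1.29 and Gclm, a subunit of the enzyme that starts glutathione synthesis, by 1.06, and Gsta4, a glutathione transferase, fell by 0.89.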
